A study of Anthurium andraeanum with 18 samples.

Results

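Leaves of Anthurium andraeanum, an ornamental aroid, were followed through the last heating step in the plant material called Ken. The 3 libraries taken at 40/35 °C (day/night), called Ken 40, were set against the 3 taken at 38/33 °C, called Ken 38. Members were chosen by the material and temperature in the sample titles, which gave 6 of the 18 libraries of the series, and all genes of the expression table entered the comparison. Of its 158487 assembled genes, 70022 passed the filter on low counts and were tested. The plants were in full flower and stood in growth chambers with a day of 12 h and a night of 12 h. Heated plants spent 3 days at 25 °C, 3 days at 38/33 °C and a further 3 days at 40/35 °C. The plants of Ken 40 had therefore also passed through the milder heat, and the temperature step cannot be told apart from 3 more days of heat. Control plants stayed at 25 °C throughout, and their sampling time is not given. A second material, called MH, went through the same regimes, and each of the 6 groups had 3 libraries. The labels name neither the genotype nor the kind of plant behind Ken and MH. The replicates are called biological in the titles, which do not say whether each was another plant. The p-values therefore measure only how much these samples spread, which may be technical.

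Heat unfolds proteins. Plant cells answer through heat stress transcription factors, which switch on chaperones: small heat shock proteins hold unfolded proteins in solution, HSP70, HSP90 and ClpB refold or disaggregate them, and a parallel set serves the endoplasmic reticulum. What cannot be refolded is marked with ubiquitin and cut up by the proteasome, or is carried to the vacuole by autophagy. In leaves, long heat also leads to loss of photosynthetic proteins and of chlorophyll, with features shared with senescence.

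Levels are given as TPM, a unit scaled by gene length and library, and changes as log2 of Ken 40 over Ken 38, fitted to the estimated counts with edgeR's quasi-likelihood test, ± SE. A gene rose or fell where the Benjamini-Hochberg adjusted p over all 70022 genes was below 0.05. Gene names are those of the closest described protein in the deposited table, and several assembled genes can be fragments, alleles or copies of 1 gene. Because these are bulk leaves, fewer cells of a type and less RNA per cell cannot be told apart. The 6 libraries held 15845190 to 22023694 estimated counts. Leaf markers, genes of photosynthesis in the main, reached a summed level of 132033 to 154551 TPM in the Ken controls, 23286 to 27038 in Ken 38 and 2464 to 2963 in Ken 40, and 39 of the 53 tested fell over the step. Of 32 tested markers of xylem, 2 rose and 7 fell, and of 12 tested markers of flower organs, 2 rose and 3 fell. Of 6 tested genes caught by words for fungal or animal proteins, 1 rose and 1 fell. Such small counts moved easily: 1 flower organ marker rose when any 1 of the 6 Ken libraries was left out. Without Ken 40 replicate 1, 1 xylem marker and 2 of the genes caught by those words rose. With library totals 11 xylem markers and 2 of the genes caught by those words fell. Not all of the 6 point to another organism: those described as ergosterol biosynthetic protein 28 carry the name of an Arabidopsis gene. Hydrophobin-1, a fungal protein, had no count in Ken 38 and 0, 15.9 and 3.19 TPM in Ken 40 (adjusted p = 0.0688). The summed level of 199 genes described only by a vertebrate protein was 166 and 184 TPM in Ken 40 replicates 1 and 2 and 791 in replicate 3. That library stands apart in this measure.

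Over the step 9996 genes rose (14.3% of those tested) and 11376 fell (16.2%), so that 30.5% were called. Among the 29143 tested genes that carry a description, 5971 rose (20.5%) and 5993 fell (20.6%). The median change was -0.02 both for all genes and for the described ones. A change of at least 8-fold was called for 2646 rising and 3442 falling genes. In TPM, the 3 libraries of 1 group lay above all 3 of the other for 47.0% of all genes and 57.8% of described genes, and the counts of such genes below are to be read against the second share.

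**Figure D1:**
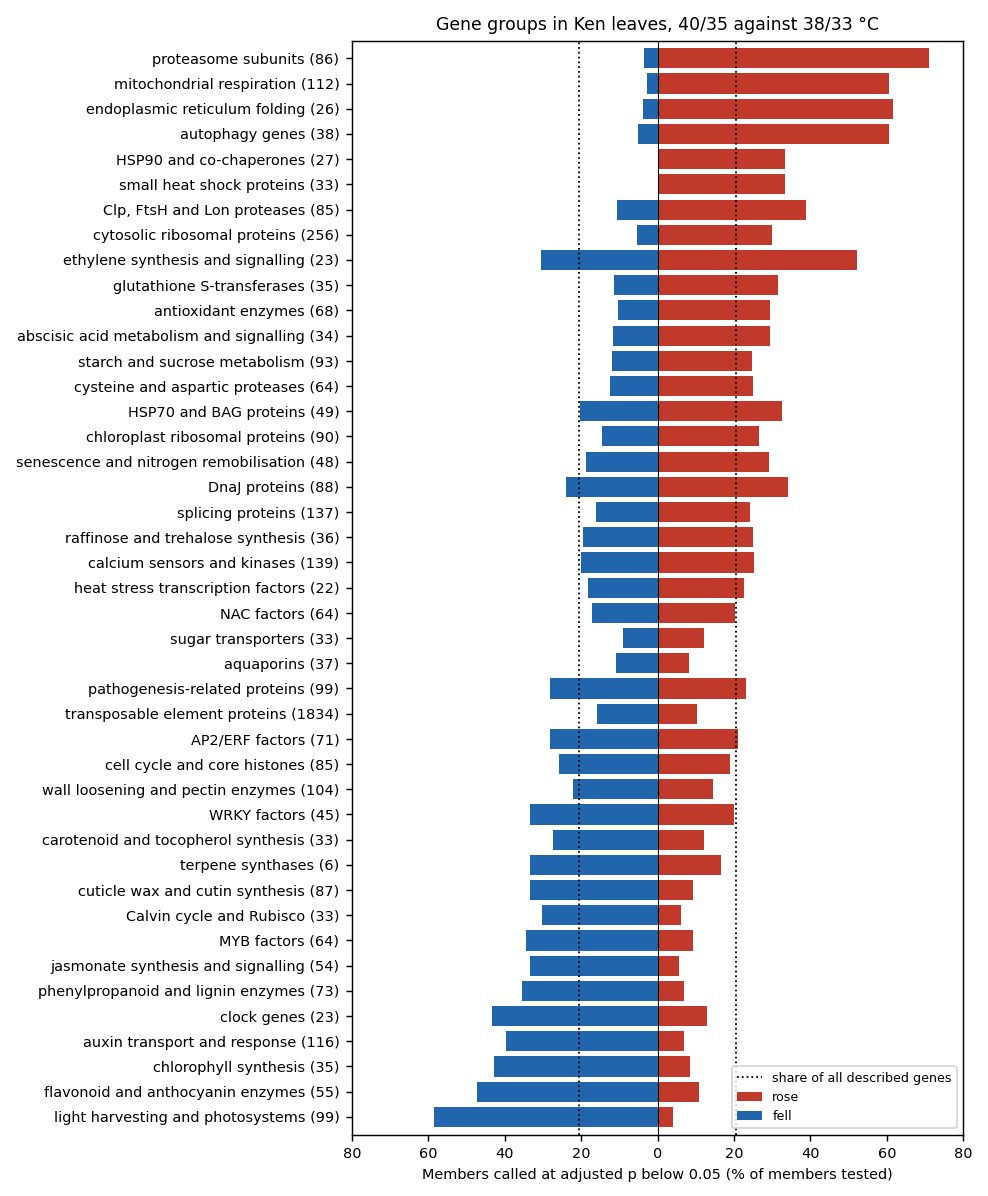
Share of tested members (x axis, %) of 43 gene groups that rose (red, right) or fell (blue, left) between Ken 38 and Ken 40, with the number tested in brackets and dotted lines at the shares of all described genes, 20.5% and 20.6%. Proteasome subunits, mitochondrial respiration, endoplasmic reticulum folding and autophagy stand at the top, and light harvesting and photosystems at the bottom.

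Small heat shock proteins were already abundant at 38/33 °C and stood higher still at 40/35 °C. Their summed level was 2075 to 4333 TPM in the controls, 33669 to 37542 TPM in Ken 38 and 47362 to 57305 TPM in Ken 40. Of the 33 tested members 11 rose and 0 fell in edgeR (33.3% called, against 41.1% of described genes), with a median change of 1.03. At an unadjusted p below 0.05 or in DESeq2, 0 were lower. In 24 of the 33 the TPM of all Ken 40 libraries lay above those of Ken 38, and in none below. HSP17.7 (TRINITY_DN45106_c1_g2), a class II protein of the cytosol, held 606, 629 and 737 TPM in Ken 38 and 1597, 1491 and 1361 in Ken 40, a rise of 1.48 ± 0.49 (adjusted p = 0.0399, and 0.0603 to 0.116 without any 1 library). HSP18.1, a class I protein, rose by 1.75 ± 0.33 from 108, 100.2 and 144 TPM to 314, 397 and 363 TPM. The groups did not overlap for either gene, which for HSP17.7 was a condition of the rule by which genes were named. The most abundant class I member (TRINITY_DN39874_c0_g1) stood at 7544, 7625 and 8309 TPM and then at 11219.6, 13892 and 10865, without overlap, but its change of 1.02 ± 0.56 did not pass (adjusted p = 0.196). It passed in models of only the Ken libraries or only these 2 groups, at adjusted p of 1.88e-13 and 2.42e-11. The chloroplast protein HSP21 held 5618 to 6372 TPM in Ken 38 and 3771 to 5754 TPM in Ken 40, and its groups overlapped. The count of rising members is sensitive to single libraries: it was 5, 7 and 6 without Ken 38 replicates 1, 2 and 3, and 6, 6 and 7 without Ken 40 replicates 1, 2 and 3.

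Among HSP90 genes and their partners the called changes were rises. Of 27 tested HSP90 genes and co-chaperones 9 rose and 0 fell in edgeR (33.3% called, against 41.1% of described genes, median 0.39), with 0 lower at an unadjusted p below 0.05 or in DESeq2. The count was 5 when Ken 38 replicate 1 or 3 or Ken 40 replicate 1 was left out. HSP83A, a cytosolic HSP90 and the most abundant rising member, held 503, 514 and 560.1 TPM in Ken 38 and 1601, 1444 and 1548 TPM in Ken 40 (log2 1.73 ± 0.49, adjusted p = 0.0196). The call was lost without Ken 38 replicate 1 (adjusted p = 0.0631) or replicate 3 (0.0526). That its groups do not overlap was a condition of the rule by which genes were named. The gene named ahsa, an activator of the ATPase of HSP90, rose by 1.69 ± 0.34. CLPB1, the disaggregase of the cytosol, rose by 1.86 ± 0.44 from 299, 271 and 298 TPM to 786, 1098 and 913 TPM. CLPC1, a chaperone of the chloroplast, fell by 0.81 on the log2 scale, from 655, 483 and 435 TPM to 273, 290.2 and 275 TPM. Among 85 tested Clp, FtsH and Lon genes, proteases and chaperones largely of organelles, 33 rose and 9 fell. That is 49.4% called, against 41.1% of described genes, with a median of 0.35.

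HSP70 and its partners moved in both directions. Of 49 tested HSP70 and BAG genes 16 rose and 10 fell (53.1% called, against 41.1% of described genes, median 0.58). Among all described genes 20.5% rose and 20.6% fell. Without Ken 38 replicate 1, 6 of the HSP70 and BAG genes fell. HSC-I, a cytosolic HSP70, rose by 0.70 ± 0.14 to 2261, 2887 and 2196 TPM, from 1786, 1596 and 1790.3. BAG1, a co-chaperone that binds HSP70, held 34.3, 49.6 and 33.5 TPM in Ken 38 and 4.48, 8.39 and 8.65 TPM in Ken 40, so that it fell by 2.41 on the log2 scale (SE 0.61). The adjusted p of BAG1 was 0.0124 with all libraries and 0.054 without Ken 40 replicate 1. DnaJ proteins, which deliver clients to HSP70, counted 30 that rose and 21 that fell of 88 (58.0% called). The pair of genes described as DnaJ protein homolog ANJ1 went opposite ways. TRINITY_DN61043_c0_g1 rose by 1.19 ± 0.26, from 249, 231 and 242 TPM to 445, 577 and 463 TPM. TRINITY_DN54133_c1_g1 fell by 0.58 (SE 0.16), from 2272, 2214 and 2040.4 TPM to 1305, 1071 and 1425 TPM, with an adjusted p of 0.0069 in all libraries and 0.0598 without Ken 38 replicate 2.

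Of 22 tested heat stress transcription factors 5 rose and 4 fell (median 0.33), so that 40.9% were called, near the 41.1% of described genes. A pair of genes described as HSFA2B, the factor class that sustains the heat response in Arabidopsis, had different levels. TRINITY_DN48213_c0_g3 was low in the controls (0.64 to 1.43 TPM) and in Ken 38 (1.55, 2.36 and 4.68 TPM) and reached 139, 190.4 and 145 TPM in Ken 40. It rose by 5.91 ± 0.61 (adjusted p = 7.86e-05). TRINITY_DN41438_c1_g1 held 316, 349 and 365 TPM in Ken 38 and 237, 194 and 198 TPM in Ken 40, so its libraries did not overlap, and its change of -0.54 ± 0.20 lay at the threshold (adjusted p = 0.0512). It passed with library totals (0.0187), with no filter (0.00336), with the replicate block (0.0375), and in models of only the 2 groups (0.000114) or the Ken libraries (0.000731). HSFA5 rose by 1.46 ± 0.23, from 21.3, 19 and 17.9 TPM to 43.7, 58.6 and 42.6 TPM. HSFC2A fell by 1.46 on the log2 scale (SE 0.20), from 46.2, 45.4 and 54.8 TPM to 19.2, 18.3 and 17.4 TPM, which is also below its control level of 63.3 to 68.4 TPM.

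**Figure D2:**
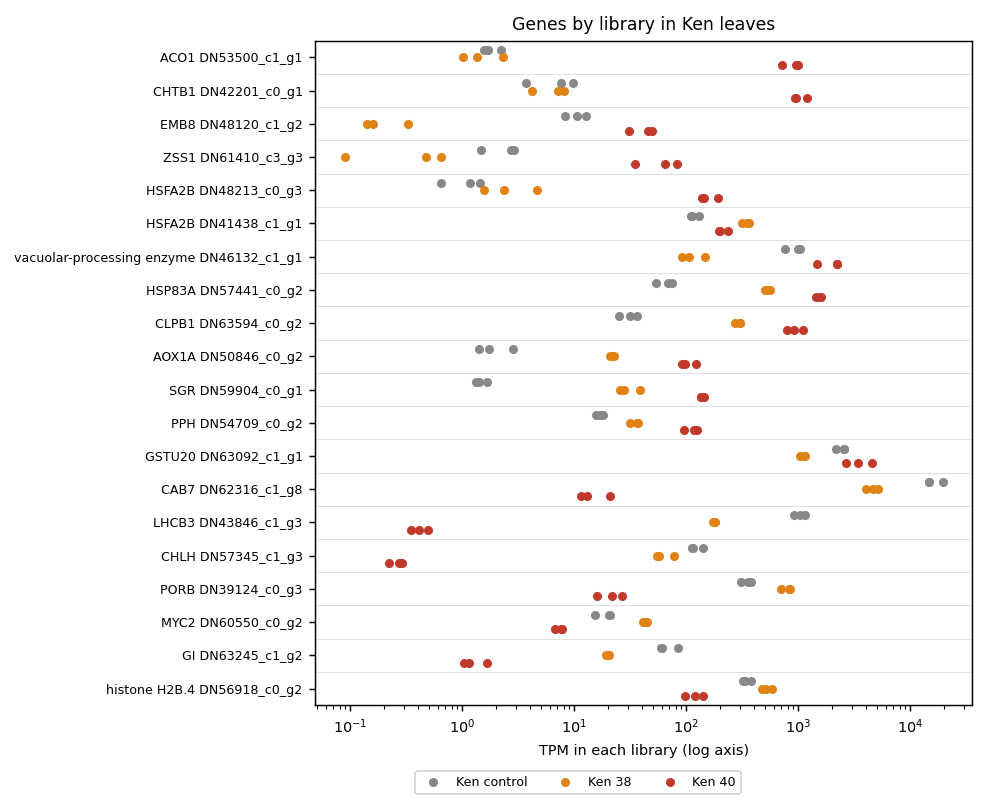
TPM (log axis) of 20 genes in each library of Ken control (grey), Ken 38 (orange) and Ken 40 (red), 3 points a group. For all 20 the Ken 38 and Ken 40 libraries do not overlap, which the naming rule required of most of them. The 20 include both HSFA2B genes, with 1.55 to 4.68 and 316 to 365 TPM in Ken 38.

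Folding genes of the endoplasmic reticulum were near their control level at 38/33 °C and higher at 40/35 °C. Their summed level was 1107 to 1129 TPM in the controls, 1084 to 1216 in Ken 38 and 2239 to 2919 in Ken 40. Of 26 tested members 16 rose and 1 fell (65.4% called, median 1.02). A gene described as protein disulfide-isomerase (TRINITY_DN46637_c1_g3), which forms disulfide bonds, rose by 2.18 ± 0.31, from 102, 139 and 151 TPM to 823, 327 and 527 TPM. The Ken 40 libraries spread widely, and that they lie above those of Ken 38 was a condition of the naming rule. BIP4, the HSP70 of this compartment, rose by 1.4 ± 0.29, from 172, 150.0 and 172 TPM to 546, 324 and 415 TPM. The lectin chaperone CRT1 rose by 1.85 ± 0.55 and DER2.2, a derlin of the export route for misfolded proteins, by 1.76 ± 0.19. The adjusted p of CRT1 was 0.0264 and went above the threshold without any 1 of 4 libraries, at 0.0605 to 0.0856. UGGT, the sensor that sends misfolded glycoproteins back to the lectin chaperones, was the member that fell: it held 35.4, 34 and 37.3 TPM in Ken 38 and 8.06, 8.1 and 12.1 TPM in Ken 40 (log2 -1.93 ± 0.17).

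Most genes of the proteasome rose: of 86 tested subunit genes 61 rose and 3 fell, which is 74.4% called, with a median of 1.04. In 65 of the 86 the Ken 40 libraries all lay above Ken 38, and in 5 below. Their summed level was 3202 to 3311 TPM in the controls, 2562 to 2683 TPM in Ken 38 and 4783 to 5587 TPM in Ken 40. PAA1, an alpha subunit of the core ring, rose by 0.96 ± 0.15, from 136, 128 and 129.8 TPM to 267, 230.1 and 228 TPM. The beta subunit PBB2 rose by 2.07 ± 0.20, from 45.9, 50.3 and 50 TPM to 195, 155 and 159.9 TPM. RPT4B, an ATPase of the regulatory cap, rose by 1.26 ± 0.13, from 64.9, 64.1 and 63.4 TPM to 145, 153 and 147 TPM. TBP1 (TRINITY_DN62905_c0_g1), described as another cap ATPase, fell by 0.85 on the log2 scale, from 20.7, 20.4 and 23.1 TPM to 9.34, 7.44 and 10.2 TPM.

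Autophagy genes were near the control level in Ken 38 and higher in Ken 40. Their summed level was 642 to 681 TPM in the controls, 595 to 677 TPM in Ken 38 and 1138 to 1303 TPM in Ken 40. Of 38 tested genes 23 rose and 2 fell (65.8% called, against 41.1% of described genes, median 0.88). With RLE size factors and in 4 of the 6 fits without 1 library, 1 fell. ATG8 proteins coat the membrane that encloses the cargo. ATG8G rose by 1.81 ± 0.15, from 46.9, 40.6 and 45.6 TPM to 119, 156 and 123 TPM, and ATG8C by 2.15 ± 0.35. ATG12, a ubiquitin-like protein of the conjugation system, rose by 1.84 ± 0.20, from 13.5, 13.9 and 13.5 TPM to 37, 47.5 and 39.4 TPM. ATG18G, a lipid-binding protein of membrane growth, rose by 1.82 ± 0.16. ATG1C, from the family of kinases that start the process, fell by 0.88 on the log2 scale, from 12.4, 10.5 and 9.29 TPM to 5.29, 5.44 and 4.24 TPM.

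Among 64 tested cysteine and aspartic proteases and their inhibitors, many of them proteins of the vacuole, 16 rose and 8 fell (37.5% called, median 0.07), with 13 falling when scaled by library totals, while their summed level was 7121 to 7855 TPM in Ken 38 and 9328 to 12158 TPM in Ken 40. A vacuolar-processing enzyme (TRINITY_DN46132_c1_g1), a protease that matures other vacuolar proteins, held 766 to 1028 TPM in the controls, 146, 92.3 and 105 TPM in Ken 38 and 1463, 2200.1 and 2215 TPM in Ken 40. It rose by 4.15 ± 0.58 (adjusted p = 0.000495). Its neighbour in the assembly (TRINITY_DN46132_c0_g1), with the same description, fell by 0.73 (SE 0.15), from 90.7, 86.1 and 88.5 TPM to 44.5, 58 and 46.9 TPM. CYS6, an inhibitor of cysteine proteases, rose by 2.37 ± 0.19, from 264, 231 and 226 TPM to 995, 1256 and 1272 TPM. RD21B, a cysteine protease known from drought and senescence in Arabidopsis, rose by 0.92 ± 0.23, from 432, 375 and 349 TPM to 713, 667 and 634 TPM.

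In the list of senescence and nitrogen remobilisation, which also holds genes of chlorophyll breakdown, 14 of 48 rose and 9 fell (47.9% called, against 41.1% of described genes, median 0.29). The summed level of the list was 7502 to 8348 TPM in the controls, 1917 to 2392 TPM in Ken 38 and 3134 to 3278 TPM in Ken 40. It thus stayed below the controls. The genes of chlorophyll breakdown given here were chosen after their values were seen, and they went both ways. SGR, which takes the magnesium out of chlorophyll, held 1.33 to 1.67 TPM in the controls, 38.9, 25.3 and 27.5 TPM in Ken 38 and 144, 136 and 136 TPM in Ken 40 (log2 2.24 ± 0.28). PPH, which removes the phytol tail, rose by 1.73 ± 0.25, from 35.9, 31.1 and 36.8 TPM to 124, 94.5 and 118 TPM. Both genes named PAO, which opens the pigment ring, rose, by 1.35 ± 0.25 and 1.51 ± 0.24. RCCR, of the next step, rose by 0.57 ± 0.16, and NYC1, which starts the breakdown of chlorophyll b, by 0.69 ± 0.21. SGRL, described as STAY-GREEN LIKE, fell by 3.24 (SE 0.75), from 5.13, 3.9 and 4.1 TPM to 0.23, 0.22 and 0.49 TPM. HCAR (TRINITY_DN62449_c0_g1), a reductase that turns chlorophyll b derivatives into chlorophyll a and is not in the list, fell by 2.15 (SE 0.28), from 22.3, 21.3 and 21 TPM to 5.11, 5.8 and 7.28 TPM. A second NYC1 gene (TRINITY_DN53089_c1_g1, 0.57 ± 0.25, adjusted p = 0.0845) and a second catabolite reductase (TRINITY_DN43819_c1_g3, 0.27 ± 0.30, adjusted p = 0.542) did not pass. A glutamine synthetase described as a nodule isozyme, an enzyme that takes up ammonium, rose by 1.53 ± 0.19, from 84.7, 79.2 and 84.1 TPM to 200.1, 266 and 206 TPM. The asparagine synthetase AS1 was at 0.45 to 1.07 TPM in the controls, at 1254, 782 and 1059 TPM in Ken 38 and at 1413, 1602 and 1521 TPM in Ken 40. Its heated groups did not overlap, and its change of 0.65 ± 0.27 did not pass (adjusted p = 0.0789). It passed with RLE size factors (0.0316), in DESeq2 (0.0127) and in a model of only the 2 groups (1.76e-06).

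Genes of mitochondrial respiration, which were below their control level in Ken 38, mostly rose. Of 112 tested genes 68 rose and 3 fell (63.4% called, median 0.92), and the summed level was 3347 to 3840 TPM in the controls, 2168 to 2261 TPM in Ken 38 and 4135 to 4668 TPM in Ken 40. QCR7-2, a subunit of the cytochrome b-c1 complex, rose by 1.66 ± 0.22, from 115, 107 and 111 TPM to 353, 325 and 316 TPM. A Rieske iron-sulfur subunit of the same complex (TRINITY_DN46013_c0_g5) rose by 1.97 ± 0.16, from 39.5, 33.8 and 35.9 TPM to 142, 136 and 128 TPM. ATPB, the catalytic subunit of ATP synthase, rose by 0.94 ± 0.16, from 62.1, 62 and 70 TPM to 105, 135 and 113 TPM. The groups did not overlap for these 3 genes. AOX1A, the alternative oxidase that bypasses this complex, went from 1.42 to 2.86 TPM in the controls to 22, 20.7 and 22.6 TPM in Ken 38 and 90.8, 121 and 98 TPM in Ken 40 (log2 2.17 ± 0.49, adjusted p = 0.00645). The uncoupling protein PUMP4, which dissipates the proton gradient, fell by 2.88 on the log2 scale, from 39.4, 44.7 and 48.1 TPM to 3.99, 3.09 and 10.1 TPM.

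**Figure D3:**
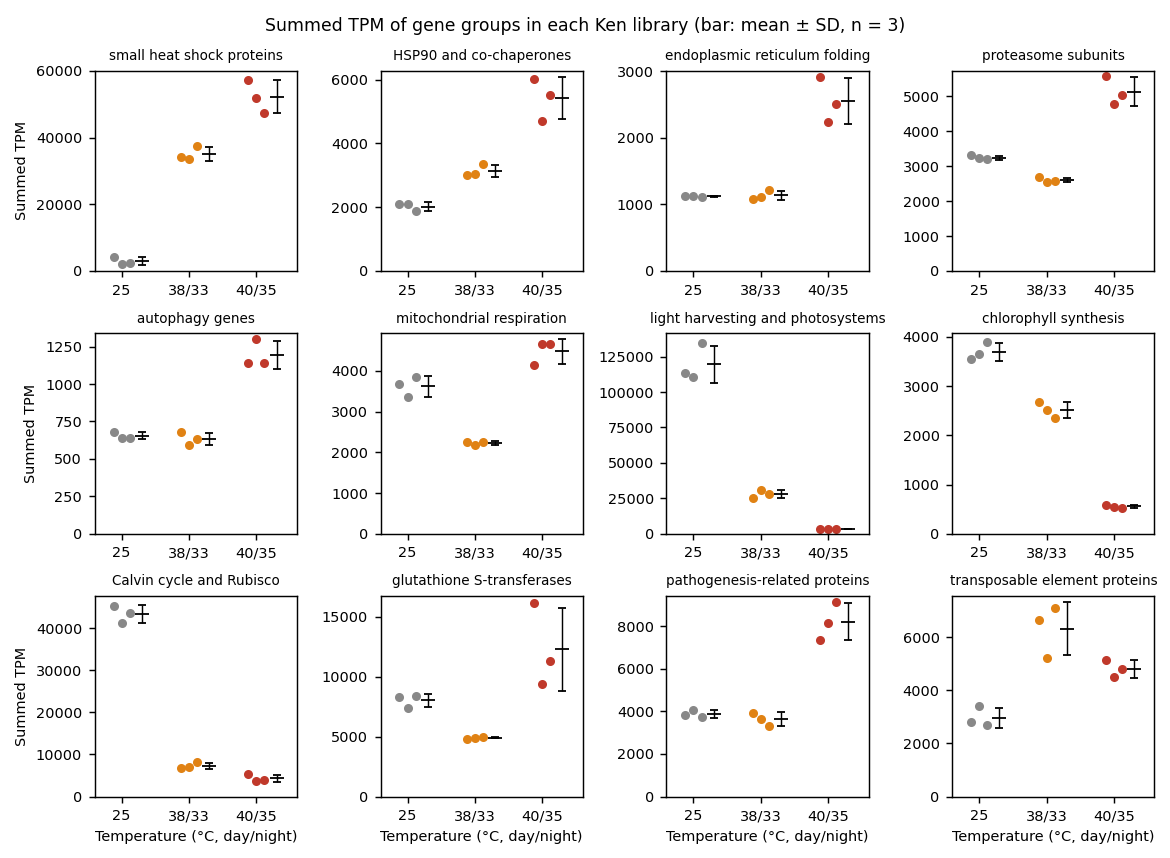
Summed TPM (y axis, from 0) of 12 gene groups in each Ken library at 25, 38/33 and 40/35 °C (x axis), with the mean ± SD of the 3 libraries beside the points. Proteasome and mitochondrial respiration genes are lowest in Ken 38 and highest in Ken 40, small heat shock proteins step up at both temperatures, and photosystem genes step down at both, to 3224 to 3540 TPM.

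Light harvesting and photosystem genes, which had lost most of their control level at 38/33 °C, lost most of the remainder over the next step. Their summed level was 110569 to 134811 TPM in the controls, 25432 to 30966 TPM in Ken 38 and 3224 to 3540 TPM in Ken 40, a ratio of 8.35 between the means of the heated groups. Of 99 tested members 58 fell and 4 rose (62.6% called, against 41.1% of described genes, median -2.02). In 66 the Ken 40 libraries all lay below Ken 38, and in 8 above. The most abundant antenna gene in Ken 38, CAB7 (TRINITY_DN62316_c1_g8), held 4009, 5109 and 4684 TPM there and 20.9, 11.4 and 12.9 TPM in Ken 40, and fell by 8.17 on the log2 scale (SE 1.26, adjusted p = 0.00299). LHCB3, of the antenna of photosystem II, fell by 8.94 (SE 1.43), from 174, 175 and 179 TPM to 0.49, 0.35 and 0.41 TPM. LHCB4.1, another antenna protein of photosystem II, fell by 6.26 (SE 0.67), from 722, 881 and 853 TPM to 13.8, 6.3 and 8.71 TPM. In each of these antenna genes the Ken 40 libraries lay far below those of Ken 38. PETE, the electron carrier plastocyanin, fell by 3.66 (SE 0.66), and PSBR, a small subunit of photosystem II, by 1.62 (SE 0.35), from 1878, 1828 and 1819 TPM to 617, 549.7 and 562 TPM. PSBR is among the 5 named genes with the largest loss in mean TPM. For LHCB1.3 the deposited TPM and estimated counts give different sizes: 2105, 2654 and 2597 TPM against 17.2, 9.27 and 7.87 TPM, beside a fitted change of -5.21 ± 0.87.

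Genes of chlorophyll synthesis also fell more often than they rose. The 35 tested counted 15 that fell and 3 that rose (51.4% called, against 41.1% of described genes, median -1.04), or 1 that rose without Ken 40 replicate 1. Their summed level was 2354 to 2672 TPM in Ken 38 and 527 to 594 TPM in Ken 40, a ratio of 4.52 between the means. CHLH, the subunit of magnesium chelatase that binds the pigment precursor, held 55.2, 57 and 77.5 TPM in Ken 38 and 0.22, 0.27 and 0.29 TPM in Ken 40, and fell by 7.80 (SE 1.0). PORB, which makes chlorophyllide in the light, was higher in Ken 38 (848, 819 and 694 TPM) than in the controls (308 to 378 TPM), and then fell by 5.08 (SE 0.90) to 26.7, 21.9 and 15.9 TPM. CRD1, an earlier enzyme, fell by 5.53 (SE 0.97). GLUTRBP, which binds the first enzyme of the pathway, rose by 0.60 ± 0.17, from 30.7, 34.8 and 33.3 TPM to 58.1, 44.1 and 47.9 TPM. Its adjusted p was 0.00832, and 0.0533 without Ken 40 replicate 1.

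The Calvin cycle, which fixes carbon dioxide, held fewer called genes. Of 33 tested genes 10 fell and 2 rose (36.4% called, against 41.1% of described genes, median -0.50), and the summed level was 6722 to 8136 TPM in Ken 38 and 3630 to 5269 TPM in Ken 40. The count of falling genes was 6 without Ken 38 replicate 3 and 5 without Ken 40 replicate 2 or 3. RCA1, Rubisco activase, which heat is known to inactivate, fell by 1.94 (SE 0.55, adjusted p = 0.0216), from 939, 1171 and 1334 TPM to 359, 224 and 264 TPM. The call was lost when Ken 38 replicate 2 or 3 or Ken 40 replicate 2 or 3 was left out (adjusted p 0.0562 to 0.0746). The main gene of the small subunit of Rubisco (TRINITY_DN40113_c2_g3) stood at 1887, 2001 and 2296 TPM and then at 649.8, 617 and 503 TPM, without overlap, and its change of -1.73 ± 0.66 did not pass (adjusted p = 0.0716). It passed with library totals (0.0444), with the filter at 50 counts (0.0272), in DESeq2 (0.0125) and in models of only the 2 groups (9.43e-21) or only the Ken libraries (2.53e-28). A second gene named RBCS (TRINITY_DN32954_c0_g1), listed at 0.1 to 0.61 TPM in the controls, rose by 1.42 ± 0.35, from 20.3, 19.2 and 17 TPM to 38.7, 45.5 and 58.9 TPM. Of the chloroplast ribosomal proteins 24 of 90 rose and 13 fell (41.1% called, median 0.05, and -0.04 when scaled by library totals), at a summed level of 1987 to 2009 TPM in Ken 38 and 2003 to 2164 TPM in Ken 40.

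Carotenoid and tocopherol genes counted 9 that fell and 4 that rose of 33 (39.4% called, against 41.1% of described genes, median -0.56). LCY1, a lycopene cyclase, rose by 0.93 ± 0.17, from 30.3, 27.1 and 33.6 TPM to 58.7, 48.4 and 55.3 TPM. CCD, which cleaves carotenoids, fell by 0.89 (SE 0.16), from 169, 168 and 195 TPM to 65, 90.2 and 118 TPM. VTE4, the last methyltransferase of alpha-tocopherol synthesis, held 0.03, 0 and 0.08 TPM in Ken 38 and 22.9, 34.9 and 63 TPM in Ken 40, a rise of 10.04 ± 1.70.

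Antioxidant genes rose more often than they fell, 20 against 7 of 68 (39.7% called, against 41.1% of described genes, median 0.28), and 4 fell without Ken 38 replicate 2. APX1, a cytosolic ascorbate peroxidase that removes hydrogen peroxide, was at 1065 to 1068 TPM in the controls, at 284, 299 and 372 TPM in Ken 38 and at 781, 476 and 626 TPM in Ken 40, a rise over the step of 1.12 ± 0.17. GPX3, a glutathione peroxidase, rose by 2.21 ± 0.16, from 85.9, 96.2 and 87.8 TPM to 347, 443 and 399.7 TPM. The catalase CAT2 held 894 to 982 TPM and 928 to 1143 TPM, with overlapping groups. Glutathione S-transferases, which couple glutathione to reactive compounds, counted 11 that rose and 4 that fell of 35 (42.9% called). Their median was 0.63, or 0.34 with 2 genes that had no count in a group set at the limit of 3 counts per library. GSTU20 rose by 1.97 ± 0.20, from 1035, 1119 and 1153 TPM to 4576, 2679.8 and 3433 TPM. PARC, described as another member of the family, rose by 2.57 ± 0.22, from 445, 492 and 585 TPM to 3338, 2274 and 2504 TPM. These are among the 5 largest gains in mean TPM of all described genes under the naming rule.

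Ethylene genes were the most often called of the hormone groups: 12 of 23 rose and 7 fell (82.6%, median 0.70). ACO1, which makes ethylene in the last step of its synthesis, held 1.01, 2.3 and 1.35 TPM in Ken 38 and 712, 997 and 949 TPM in Ken 40, a rise of 9.19 ± 0.73. The summed level of the whole group was 1511 to 1835 TPM in Ken 40 and 586 to 684 TPM in Ken 38. The receptor ETR2 rose by 1.30 ± 0.26, from 32.8, 26.2 and 26.3 TPM to 81.6, 60.5 and 65.9 TPM, and RTE1, a regulator of receptor function in Arabidopsis, by 1.9 ± 0.44. EBF1, the F-box protein that sends the factor EIN3 to the proteasome, rose by 0.74 ± 0.17. An EIN3 gene (TRINITY_DN54444_c0_g1), of the factor class that switches on ethylene responses, fell by 1.25 (SE 0.33), from 19.1, 16.7 and 16.6 TPM to 5.79, 7.82 and 7.94 TPM. CTR1, the kinase that holds the pathway off, fell by 0.81 (SE 0.27, adjusted p = 0.0252), a call that was lost without Ken 38 replicate 2 or 3 or Ken 40 replicate 1 or 2 (adjusted p 0.0619 to 0.118). Of 71 AP2/ERF factors 15 rose and 20 fell (49.3% called, against 41.1% of described genes). RAP2-12, a factor of the low-oxygen response in Arabidopsis, rose by 1.31 ± 0.20, from 196, 196 and 213 TPM to 431, 517 and 454 TPM, and ERF010 fell by 2.63 (SE 0.56).

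Auxin genes fell more often than they rose. Of 116 tested genes of transport and response 46 fell and 8 rose (46.6% called, against 41.1% of described genes). Their median was -1.32, or -1.21 with 7 genes at their count limit. In 74 the Ken 40 libraries all lay below Ken 38, and in 11 above. The summed level was 1714 to 1849 TPM in the controls, 2063 to 2240 TPM in Ken 38 and 1056 to 1285 TPM in Ken 40. ARF4, a response factor, held 182, 159 and 158 TPM and then 86.3, 119 and 81.4 TPM, and fell by 0.70 (SE 0.23, adjusted p = 0.0245), which was lost without Ken 38 replicate 1 or 2 or Ken 40 replicate 1 or 3 (adjusted p 0.0683 to 0.0977). ABP4, an auxin-binding protein, rose by 0.90 ± 0.22, from 29.4, 27.4 and 29.2 TPM to 48.6, 52.3 and 49.2 TPM. Jasmonate genes fell 18 to 3 of 54 (38.9% called, against 41.1% of described genes, median -0.69), and 1 rose without Ken 40 replicate 2. MYC2, the central factor of jasmonate responses, fell by 3.11 (SE 0.38), from 43.7, 41 and 44.6 TPM to 6.74, 7.55 and 7.81 TPM. Abscisic acid genes counted 10 that rose and 4 that fell of 34 (41.2% called, near the share of described genes, median 0.32). SAPK8, a kinase of abscisic acid signalling in rice, rose by 1.64 ± 0.28, from 35.7, 38.9 and 29.7 TPM to 91, 137 and 75 TPM.

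Among the other transcription factor families, MYB factors counted 22 that fell and 6 that rose of 64 (43.8% called, against 41.1% of described genes). Their median was -1.44, or -0.78 with 9 genes at their count limit. MYB114, of the anthocyanin regulators, was at 0.04 to 0.18 TPM in the controls, at 27.8, 52.9 and 83 TPM in Ken 38 and at 2.58, 3.27 and 2.97 TPM in Ken 40, and fell by 3.54 (SE 0.67). Its expression was thus high in 1 of the 3 regimes. WRKY factors, best known from defence and senescence, counted 9 that rose and 15 that fell of 45 (53.3% called). Without Ken 40 replicate 1 these counts were 5 and 9. WRKY75, which promotes senescence in Arabidopsis, rose by 2.49 ± 0.45, from 7.61, 4.88 and 12.3 TPM to 30.8, 34.6 and 60.4 TPM. NAC factors counted 13 and 11 of 64 (37.5% called). Leaving out Ken 38 replicate 3 gave 7 that rose, and leaving out Ken 38 replicate 1 or 2 or Ken 40 replicate 1 or 3 gave 7 that fell. NAC68 stood at 1.88 to 2.55 TPM in the controls, 249.7, 175 and 239 TPM in Ken 38 and 303, 549 and 457 TPM in Ken 40 (log2 1.08 ± 0.38, adjusted p = 0.0428). It passed in 1 of the 6 fits that left out a library (adjusted p up to 0.14 in the others).

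Clock genes fell 10 to 3 of 23 (56.5% called, against 41.1% of described genes, median -1.03). Their summed level did not fall: it was 739 to 847 TPM in Ken 38 and 752 to 1013 TPM in Ken 40. In every Ken 40 library 16 of the 23 lay below Ken 38, and 4 above. The hour of sampling is not given, so the time of day was not tested as a part of this result. APRR5, a repressor that acts from midday to evening in Arabidopsis, fell by 4.16 (SE 0.44), from 56.9, 53.7 and 64.4 TPM to 2.56, 3.71 and 4.13 TPM. LNK2, a light-linked regulator of evening genes, fell by 4.83 (SE 0.58), from 30.4, 28.9 and 39.1 TPM to 0.33, 0.83 and 2.28 TPM. GI, an evening gene, fell by 3.80 (SE 0.21), from 19.9, 20.5 and 19.1 TPM to 1.67, 1.04 and 1.15 TPM. LHY, a factor of the morning, fell by 1.30 (SE 0.23), from 113, 118 and 112 TPM to 19.3, 44.9 and 40.1 TPM. Genes of the morning and of the evening were thus both among the falling ones. ADO1, a photoreceptor of the F-box family, rose by 1.01 ± 0.18.

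Defence genes split. Pathogenesis-related proteins counted 23 that rose and 28 that fell of 99 (51.5% called, against 41.1% of described genes), with 18 falling without Ken 40 replicate 1. Their median was -0.41, or -0.26 with 7 genes at their count limit, while their summed level was 3316 to 3934 TPM in Ken 38 and 7369 to 9112 TPM in Ken 40. The chitinases CHTB1 and CHN48, enzymes that cut the wall of fungi, were among those that rose. CHTB1 rose by 8.34 ± 0.62, from 4.2, 7.09 and 8 TPM to 959.6, 938 and 1202 TPM. CHN48 rose by 6.84 ± 0.43, from 4.77, 4.03 and 6.9 TPM to 718, 704 and 839 TPM. A gene described as pathogenesis-related protein 1 (TRINITY_DN53878_c0_g1) had 33 to 43.1 TPM in the controls, 6.44, 5.51 and 14.9 TPM in Ken 38 and 586, 587 and 418 TPM in Ken 40 (log2 5.97 ± 0.59). The thaumatin-like gene tlp rose by 5.92 ± 0.85, from 8.46, 5.99 and 4.05 TPM to 385, 268 and 444 TPM. GLC1, a glucanase of the callose-degrading class, fell by 1.80 (SE 0.30), from 118, 103 and 72.1 TPM to 31.5, 20.6 and 27.5 TPM.

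In the phenylpropanoid and flavonoid pathways more genes fell than rose, and about as many or more were not called. Of 73 phenylpropanoid and lignin genes 26 fell, 5 rose and 42 were not called (42.5% called, against 41.1% of described genes, median -0.48). Of 55 flavonoid and anthocyanin genes 26 fell, 6 rose and 23 were not called (58.2% called, median -1.22). The count of falling flavonoid genes was 17 without Ken 38 replicate 3 and 15 without Ken 40 replicate 3. FL, an enzyme of flavonol synthesis, fell by 0.97 (SE 0.29), from 430.4, 388 and 354 TPM to 178, 304 and 232 TPM. Its adjusted p of 0.018 became 0.053 to 0.0832 when any 1 of 4 libraries was left out. CCR1, a reductase on the way to lignin, rose by 1.07 ± 0.16, from 55, 55.9 and 57 TPM to 86.3, 136 and 120.0 TPM. A second cinnamoyl-CoA reductase (TRINITY_DN51480_c2_g2) fell by 1.25 (SE 0.32), from 46.1, 43.4 and 53.5 TPM to 9.86, 11.4 and 17.2 TPM. An anthocyanin glucosyltransferase (TRINITY_DN49386_c0_g9) rose by 5.76 ± 0.52, from 0.51, 2.88 and 1.42 TPM to 65, 68 and 119 TPM. A list of 13 genes with words for terpene synthases in their descriptions had 6 tested, with 1 rise and 2 falls, and 4 rises with no filter or 0 with a filter at 50 counts. It includes CPS2, of diterpene and gibberellin synthesis, which fell by 2.85 (SE 0.47) from 3.02, 2.74 and 3.39 TPM to 0.52, 0.54 and 0.39 TPM. The summed level of the 13 was 2399 to 3914 TPM in the controls, 5.99 to 7.19 TPM in Ken 38 and 10.6 to 12.2 TPM in Ken 40. The words do not catch every such gene: ZSS1, described as an alpha-humulene synthase, is outside the list and alone stood at 82.8, 34.6 and 65 TPM in Ken 40, above that sum.

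**Figure D4:**
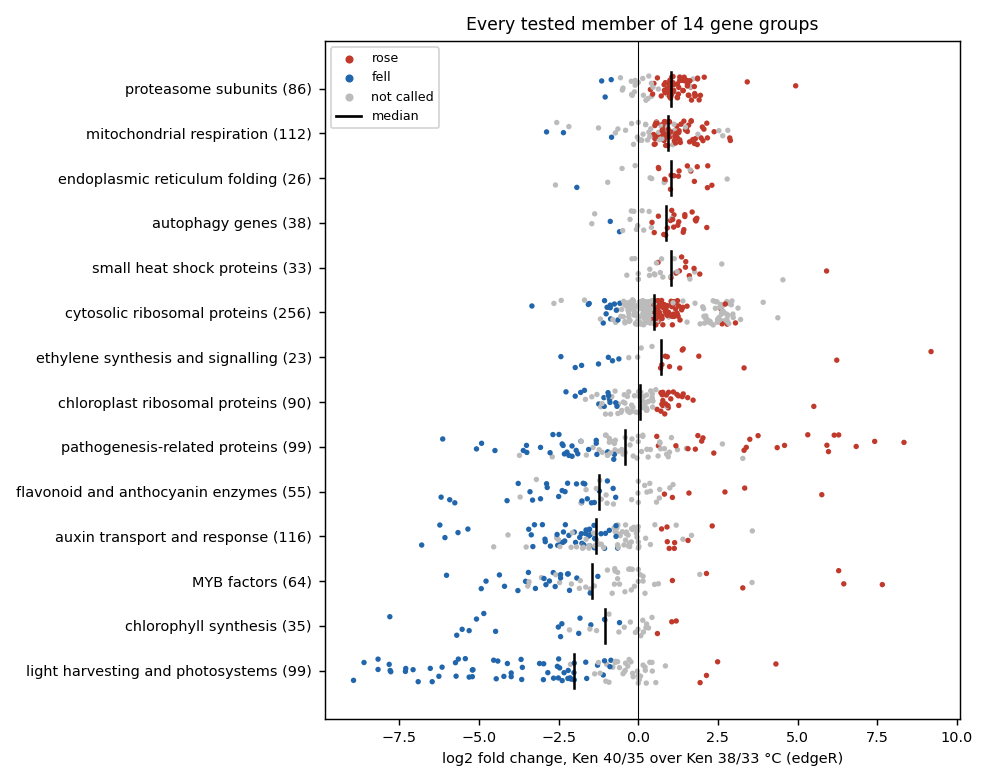
Fitted log2 change from Ken 38 to Ken 40 (x axis) of every tested member of 14 gene groups (1 point a gene, red where it rose, blue where it fell, grey otherwise), with the median of each group as a bar. Proteasome and mitochondrial respiration genes have medians of 1.04 and 0.92, and pathogenesis-related proteins run from -6.14 to 8.34.

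In sugar, water, wall and cuticle genes 18.9% to 44.4% of the members were called, against 41.1% of all described genes. Raffinose and trehalose genes, which make protective sugars, counted 9 that rose and 7 that fell of 36, with 4 or 5 rising without Ken 38 replicate 2 or 3 or Ken 40 replicate 1 and 5 with library totals, and 2 to 4 falling without any 1 library other than Ken 38 replicate 3 and 4 with RLE size factors. Starch and sucrose genes rose 23 to 11 of 93 (median 0.09, and 0 when scaled by library totals), with 4 to 7 falling when Ken 38 replicate 2 or 3 or Ken 40 replicate 1 or 2 was left out. CIN1, a wall invertase that splits sucrose outside the cell, rose by 2.31 ± 0.23, from 175, 139.5 and 135 TPM to 744, 649 and 694 TPM. BAM9, described as an inactive beta-amylase, fell by 1.35 (SE 0.26), from 496, 475 and 479 TPM to 212, 172 and 157 TPM. Sugar transporters counted 4 and 3 of 33, or 7 that rose with RLE size factors: STP14 rose by 1.83 ± 0.40 and SWEET2A fell by 1.07 (SE 0.29). Aquaporins, channels for water, were called in 18.9% of 37 genes, 3 that rose and 4 that fell. In 16 the Ken 40 libraries all lay below Ken 38, and in 4 above. Their summed level was 1754 to 2066 TPM in the controls, 7239 to 7863 TPM in Ken 38 and 3976 to 5032 TPM in Ken 40. TIP4-1, of the vacuolar membrane, rose by 1.44 ± 0.40, an adjusted p of 0.0144 that was 0.059 without Ken 38 replicate 3. TIP2-2 went from 517, 389.6 and 432 TPM to 194, 124 and 215 TPM and fell by 1.33 (SE 0.46, adjusted p = 0.047), a call lost without any 1 of the 6 libraries (adjusted p 0.0749 to 0.146). The number of falling aquaporins ran from 0 to 2 without any 1 library other than Ken 40 replicate 3, and was 8 with library totals. That of rising ones was 1 without Ken 38 replicate 3. Wall loosening and pectin genes counted 15 and 23 of 104, with 9 rising without Ken 38 replicate 3 and 15 falling without Ken 40 replicate 1. Cuticle genes counted 8 and 29 of 87 (median -0.88, or -0.65 with 10 genes at their count limit), with 19 falling without Ken 40 replicate 3.

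Cytosolic ribosomal proteins rose 77 to 14 of 256 (35.5% called, against 41.1% of described genes, median 0.49). The falling count was 5, 6 and 9 without Ken 38 replicate 2, Ken 40 replicate 1 and Ken 40 replicate 2, and 9 with RLE size factors. The 180 members with a mean of at least 10 TPM over the 18 libraries counted 71 that rose and 9 that fell (median 0.32). RPP1A, an acidic protein of the ribosomal stalk, rose by 1.11 ± 0.15, from 856, 790.2 and 1012 TPM to 1698, 1842 and 1735 TPM. The other 76 members had a median of 2.35 with 6 rises and 5 falls, and 55 of them were highest in Ken 40 replicate 3. Their summed level was 161, 187 and 541 TPM in the Ken 40 libraries, beside 166, 184 and 791 TPM of the genes described only by vertebrate proteins. The part of those transcripts in the median was not tested. Histone and cell cycle genes counted 16 and 22 of 85 (44.7% called). Histone H2B.4 (TRINITY_DN56918_c0_g2), a core histone, fell by 1.89 (SE 0.21), from 517, 469 and 579 TPM to 119, 96.8 and 139 TPM. Among 137 splicing genes 33 rose and 22 fell (40.1% called), and usp106, of the U1 particle, fell by 1.44 (SE 0.20), from 201, 242 and 210.5 TPM to 56.4, 67.9 and 90.4 TPM. Calcium sensors and kinases counted 35 and 28 of 139 (45.3% called), and CAM1, a calmodulin, rose by 1.30 ± 0.21 to 659, 650.0 and 638 TPM from 249, 227 and 262 TPM.

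Of 1834 transposable element proteins 187 rose and 289 fell (26% called, against 41.1% of described genes, median -0.17, or -0.06 with 187 genes at their count limit). Leaving out Ken 38 replicate 2 gave 121 rises. The summed level was 2701 to 3390 TPM in the controls, 5199 to 7104 TPM in Ken 38 and 4485 to 5145 TPM in Ken 40, so the heated groups do not overlap. A retrotransposon gene (TRINITY_DN64129_c4_g3) held 8.82 to 13.8 TPM in the controls, 159, 118 and 117 TPM in Ken 38 and 3.23, 5.51 and 1.58 TPM in Ken 40, and fell by 5.10 (SE 0.44).

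The largest rises of single genes included several that were close to absent at 38/33 °C. CjBAp12 (TRINITY_DN34585_c0_g1), described as a secreted EG45-like domain protein, had no count in Ken 38 and held 5.87, 16.4 and 21.4 TPM in Ken 40, which is at least 78.3-fold higher against a limit of 3 counts per library. EMB8, described as embryogenesis-associated, held 8.29 to 12.7 TPM in the controls, 0.16, 0.33 and 0.14 TPM in Ken 38 and 30.8, 45.4 and 49.3 TPM in Ken 40 (log2 7.85 ± 0.56). ZSS1, an alpha-humulene synthase of sesquiterpene synthesis, rose by 7.61 ± 0.87, from 0.09, 0.65 and 0.47 TPM to 82.8, 34.6 and 65 TPM. The cytochrome P450 gene CYP71A1 rose by 7.71 ± 1.85 and the gene described as antimicrobial peptide 1 by 7.42 ± 1.12. On the other side PI21 (TRINITY_DN56240_c0_g5), described as a rice blast resistance protein, held 184 to 234 TPM in the controls, 12.3, 16.2 and 19.9 TPM in Ken 38 and no count in Ken 40. It was at least 18-fold lower, with an adjusted p of 0.0246 that was 0.0522 to 0.065 in 4 of the 6 fits without 1 library. The largest gains in mean TPM also included a metallothionein, a small metal-binding protein, which went from 2421, 1741 and 2095 TPM to 4298, 3564 and 5649.9 TPM (log2 1.20 ± 0.42, adjusted p = 0.0499, and 0.061 to 0.129 without any 1 library). The largest losses included a trypsin/chymotrypsin inhibitor, from 3224, 3711 and 6039 TPM to 456, 879 and 1745 TPM (log2 -2.01 ± 0.57, adjusted p = 0.0208). They also included an abscisic stress-ripening protein, from 2251, 2582 and 2743 TPM to 358, 698 and 813 TPM (log2 -2.07 ± 0.57, adjusted p = 0.0191). Both losses missed the threshold without some of the libraries, at adjusted p up to 0.0768 and 0.0753.

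The same step in MH was used to ask where Ken differs, by testing the difference of the 2 steps for each gene. MH 40 against MH 38 called 18372 genes (26.2%). The difference passed for 12581 genes (18%), with 7304 larger in Ken (10.4%) and 5277 smaller (7.54%), and a median difference of -0.17 over all genes. That split depends on scaling: it was 5427 and 7070 with library totals (median -0.43), 5567 and 7087 with TMM factors of described genes (median -0.42) and 6624 and 5848 with RLE size factors (median -0.26). Among described genes 5924 were larger (20.3%) and 2259 smaller (7.75%) with the main scaling. MH 38 replicate 3 stands apart from its group in photosynthesis and in other groups. In MH 38 replicates 1 to 3 aquaporins summed to 3199, 2675 and 8818 TPM, and HSP90 genes and partners to 6699, 5921 and 3066 TPM. Without replicate 3 the counts over all genes were 8433 and 7553. The median difference then went from 1.76 to 0.74 for aquaporins and from 1.64 to 0.65 for wall loosening genes. It went up for others, as from 2.25 to 2.48 for small heat shock proteins.

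With the main scaling, in 42 of 47 gene lists more of the called differences were larger in Ken than smaller, so this lean was not particular to the groups given here. It also depends on scaling: the sign of the difference did not hold for 5 lists under the 3 other scalings. With library totals the median difference was 1.99 in place of 2.25 for small heat shock proteins and 1.30 in place of 1.57 for mitochondrial respiration. For ethylene genes it was -0.01 in place of 0.32. For small heat shock proteins 16 of 33 differences were larger in Ken and 0 smaller, with a median change of -1.32 in MH beside 1.03 in Ken. HSP90 and its partners gave 14 and 0 of 27, and autophagy genes 15 and 0 of 38. At an unadjusted p below 0.05 in edgeR the smaller counts of these 3 groups were 0, 1 and 1, and in DESeq2 0, 0 and 1. Folding genes of the endoplasmic reticulum gave 17 and 1 of 26, and proteasome subunits 53 and 7 of 86. These counts compare changes, not levels. Proteasome genes had summed means of 5285 TPM in MH 38 and 5254 in MH 40, beside 2608 in Ken 38 and 5136 in Ken 40. For autophagy genes these were 968 and 1123 TPM in MH, beside 635 and 1193 in Ken. For folding genes of the endoplasmic reticulum they were 1238 and 904 TPM in MH, beside 1139 and 2558 in Ken. Mitochondrial respiration gave 75 larger and 3 smaller of 112 (median -0.61 in MH), and chloroplast ribosomal proteins 46 and 3 of 90 (median -1.05 in MH). Under the 3 other scalings and without MH 38 replicate 3 the larger counts ran from 14 to 17 for small heat shock proteins, 9 to 14 for HSP90, 43 to 59 for the proteasome, 61 to 75 for respiration and 39 to 46 for chloroplast ribosomes. Cytosolic ribosomal proteins gave 108 and 6 of 256, starch and sucrose genes 31 and 3 of 93, and wall loosening genes 28 and 2 of 104. Heat stress transcription factors gave 3 and 3 of 22. The HSFA2B gene TRINITY_DN48213_c0_g3 had means of 102 TPM in MH 38 and 40.6 in MH 40, and its difference was 7.17 ± 0.85 (adjusted p = 0.000181). HSP83A had means of 1053 and 249 TPM in MH, a difference of 3.69 ± 0.69. The difference of CHN48 was 7.93 ± 0.60 (adjusted p = 3.18e-06 in edgeR). In MH its TPM and counts went opposite ways. Its means were 26.1 TPM in MH 38 and 56.8 in MH 40, while its fitted change there was -1.09 (adjusted p = 0.0746 in edgeR). The size of its difference is therefore uncertain.

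Photosystem genes did not give a difference that held. They counted 16 larger and 1 smaller of 99 with a median difference of 0.64, and 15 and 36 with a median of -0.61 without MH 38 replicate 3. Chlorophyll synthesis turned in the same way, from 6 and 2 of 35 to 6 and 12. Transposable element proteins were the group with mostly smaller steps in Ken: 35 differences were larger and 215 smaller of 1834, with a median of 0.70 in MH and summed means of 8217 TPM in MH 38 and 12869 TPM in MH 40. The smaller count ran from 215 to 265 under the same alternatives. This direction was not particular to that group. The 40879 tested genes without a description had medians of -0.01 in Ken and 0.49 in MH, with a median difference of -0.53. GI, which fell in Ken, had means of 15.1 and 16.5 TPM in MH, and its difference was -3.89 ± 0.30 (adjusted p = 4.81e-08). CAB7 fell in Ken by 8.17 and had means of 2419 and 34 TPM in MH, and its difference of -1.87 ± 1.77 did not pass (adjusted p = 0.537).

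**Figure D5:**
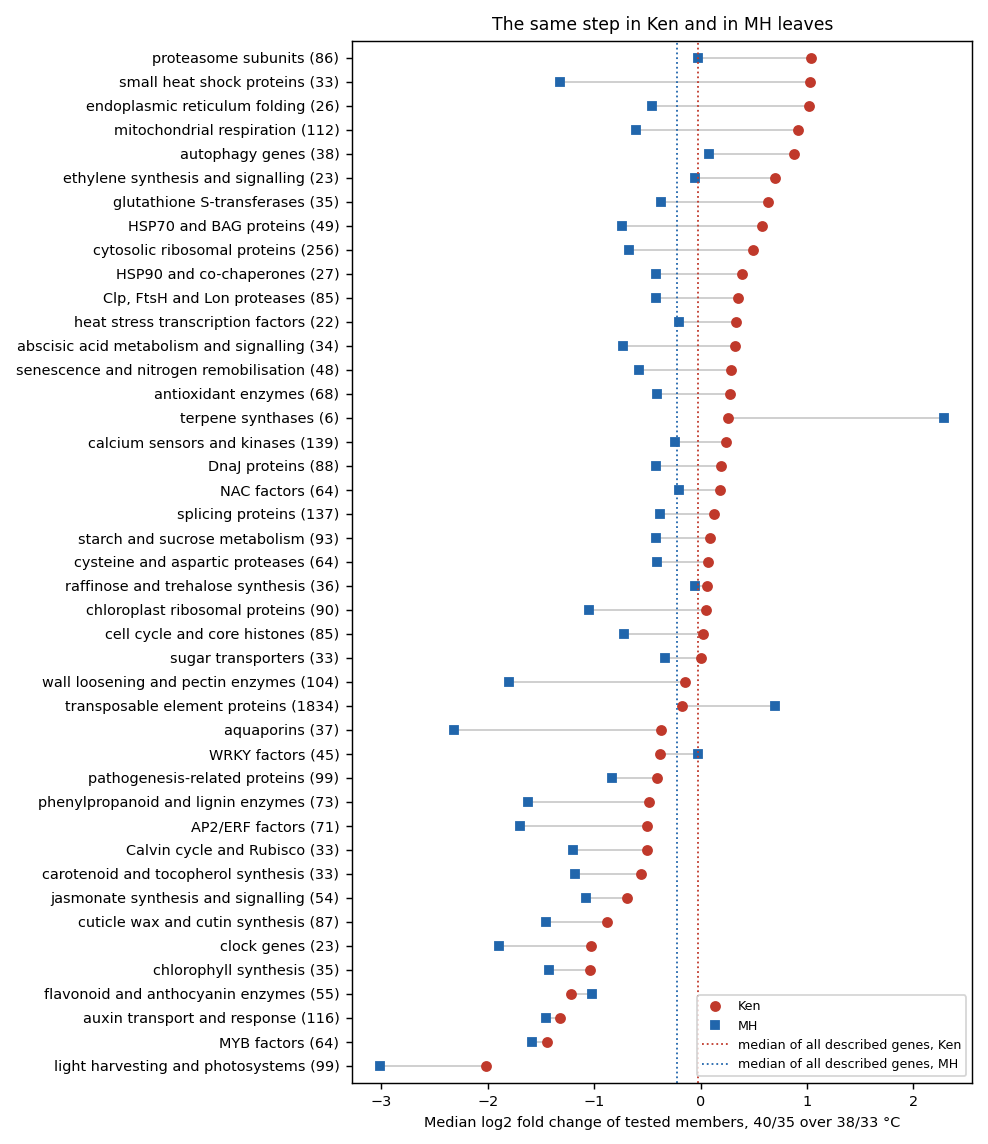
Median log2 change of the tested members of each gene group (x axis) over the step in Ken (red circles) and in MH (blue squares), with dotted lines at the medians of all described genes. Small heat shock proteins (1.03 and -1.32) and mitochondrial respiration (0.92 and -0.61) lie on opposite sides of 0, and light harvesting and photosystems (-2.02 and -3.01) lie below 0 in both.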

How the data were processed

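Leaf RNA of 18 libraries was sequenced. Per the labels' protocols RNA was extracted with Trizol and made into Illumina libraries. Adapters were trimmed with cutadapt 1.9, per the submitters' processing notes. Which assembler and quantifier were used, and whether libraries keep strand, is not given in the sources used here. Per assembled gene and library, an estimated count without normalisation was deposited by the authors. The TPM values, deposited by the authors in columns that carry no unit, were read as TPM from their sums per library and are used for levels only. Genes have no genome position here, and no sequence of them was used.

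Estimated counts were rounded to whole numbers. Genes were kept with filterByExpr in edgeR 4.0.16 (min.count 10, min.total.count 15; R 4.3.3) and scaled with TMM. 1 quasi-likelihood model with the 6 group means (12 residual degrees of freedom) gave the step and its difference between Ken and MH. Calls were made at an adjusted p (Benjamini-Hochberg, over all genes tested) below 0.05. The 47 gene lists are text patterns on the deposited descriptions. The members and lists were chosen with earlier results of these data known. No set test was run.

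Genes were named by a rule: among called described genes that reach a mean of 10 TPM in their higher group, with no overlap in TPM and 1 entry per description, the 8 largest rises and falls, the 5 largest gains and losses in mean TPM, and from each list the rising and the falling member with the highest mean TPM. For genes named by this rule, the lack of overlap is a condition of the rule and no result. Further members were chosen after their values were seen. They are HSP18.1, HSP21, the most abundant class I small heat shock protein, ahsa, HSFA5, the second HSFA2B gene, BIP4, CRT1, DER2.2, PBB2, RPT4B, ATG8C, ATG12, ATG18G, RD21B, SGR, PPH, both PAO genes, NYC1, the glutamine synthetase, AS1, QCR7-2, the Rieske subunit, ATPB, AOX1A, LHCB4.1, PETE, CRD1, the main RBCS gene, GPX3, CAT2, ETR2, RTE1, EBF1, EIN3, CHN48, the pathogenesis-related protein 1 gene, tlp, APRR5, LNK2 and GI. SGRL, HCAR, the second NYC1 gene and the second catabolite reductase were also not named by the rule. CPS2 stands below the level minimum and was taken because its list had no gene past the rule.

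Where a group had no count, the fold was taken against a floor of 3 counts per library. Such floors cover counting error only. Alternatives were DESeq2 1.42.0, RLE factors, library totals, TMM factors of described genes, no filter, a minimum of 50 counts, fewer groups, a replicate block, leaving out each library, a limit of 0.01 on the adjusted p, a 2-fold minimum and 1 entry per description. The steps were also run on counts simulated from the fitted model, with few changed genes and no outlying library. That run checks the code only and does not show how the calls behave on these data. Python 3.11.15 with pandas 2.3.3 and matplotlib 3.10.9 was used for tables and plots.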

Additional observations from a re-analysis of the deposited data

Results flagged for a closer look

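For 53 of the 105 named genes the change over the step differed between Ken and MH, by the test of the difference itself (edgeR, adjusted p below 0.05). The naming rule used the change in Ken, which also enters this difference, so the count is no result about these genes. Among all 29143 tested described genes 28.1% had a called difference. Of the 11964 of them that were called over the step in Ken, 5313 had one. Values are the log2 change in Ken minus that in MH, and the causes were not tested. The 2 materials were each sampled as 3 libraries per temperature, and MH 38 replicate 3 stands apart in photosynthesis genes and in other groups, such as aquaporins.

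Among genes close to absent in Ken 38 the values were 9.10 for EMB8, 9.03 for both VTE4 and ZSS1, 7.17 for HSFA2B (TRINITY_DN48213_c0_g3), 6.89 for the antimicrobial peptide gene, 6.79 for CjBAp12, 5.46 for CHTB1 and 3.65 for ACO1. CjBAp12 had no count in Ken 38, so its value depends on the fit and is no bound. ACO1 had means of 6.38 TPM in MH 38 and 296 TPM in MH 40, and CHTB1 of 13.9 and 52.8 TPM. Among genes of high level, 2 without an informative description (TRINITY_DN63619_c1_g1 and TRINITY_DN63395_c4_g10) differed by 6.17 and 3.05, PARC by 3.84 and GSTU20 by 2.76.

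In protein folding the other values were 3.69 for HSP83A, 3.00 for the protein disulfide-isomerase, 2.86 for HSP17.7, 2.79 for CLPB1 and 0.74 for HSC-I. The DnaJ homologs ANJ1 gave 1.61 and -1.20, and UGGT gave -1.69. In degradation the values were 3.77 for the vacuolar-processing enzyme, 2.05 for ATG8G, 2.01 for CYS6, 0.76 for PAA1 and -1.33 for TBP1.

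In plastids and respiration RBCS (TRINITY_DN32954_c0_g1) differed by 5.01, a cytochrome b-c1 subunit by 1.86, LCY1 by 1.75, CCD by 1.4, the ferredoxin-NADP reductase gene by 1.35, GLUTRBP by 1.17, RPL24 by 1.02 and rplL by -0.94. APX1 differed by 1.48 and a glutathione S-transferase described as T3-like by -1.94. Among regulators MYB44 differed by 3.26, NAC68 by 2.74, TIFY3 by 1.54, ABP4 by 0.96, ADO1 by 0.93 and a cyclin-dependent kinase gene by 0.92.

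In metabolism and the wall the anthocyanin glucosyltransferase differed by 3.60, the GDSL lipase At5g37690 by 3.22, PAE8, a pectin acetylesterase, by 2.71, TIP4-1 by 1.77, CCR1 by 1.70 and CIN1 by 1.37. PAE5, another pectin acetylesterase, differed by -1.11 and TPS9 (TRINITY_DN43816_c0_g1), of trehalose synthesis, by -3.17. In RNA and ribosome genes the values were 1.37 for At2g23930, of the spliceosome, 0.77 for RPP1A and -1.44 for usp106. The retrotransposon gene differed by -5.69: it fell in Ken and had means of 12.5 TPM in MH 38 and 18.8 TPM in MH 40.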

How the results depend on the processing

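Over the step the alternatives gave 8631 to 13115 rises and 8885 to 15173 falls beside 9996 and 11376, apart from the stricter calls. An adjusted p below 0.01 gave 6049 and 6786, and a 2-fold minimum 7661 and 10158. Leaving out 1 library gave 7309 to 8604 rises and 8363 to 9237 falls. Library totals moved rises from 46.8% to 41.2% of calls and RLE factors to 53.4%. For the difference, an adjusted p below 0.01 gave 4591 larger and 2269 smaller, DESeq2 7897 and 7656, and leaving out 1 library 5926 to 8433 and 3813 to 7553. The replicate number as a block gave 8726 rises and 10422 falls, and 7 in place of 11 rising small heat shock proteins. The labels do not say that a number marks a shared plant or day, and same-numbered Ken 38 and Ken 40 libraries did not deviate together from their group means (r = 0.05, 0 and 0 across 18033 genes, which are not independent replicates).

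Of the 105 named genes 65 kept direction and side of the threshold in every alternative, and 1604 of 1780 values did. The other 176 kept their direction and missed the threshold, and 0 turned. Of the 53 further genes looked up by list, 38 of 900 values missed the threshold and 19 passed it where the main model did not, and 0 turned. Those 19 belong to 6 of the 7 that were not called, namely AS1, CAT2, PIP1-2, HSFA2B (TRINITY_DN41438_c1_g1), RBCS (TRINITY_DN40113_c2_g3) and a class I small heat shock protein (TRINITY_DN39874_c0_g1), and not to HSP21. Of the 53 differences of named genes 39 were kept in every alternative and 44 under the 3 other scalings. A model of only the 2 groups called 24 small heat shock proteins, 27 HSP70 and BAG genes and 14 HSP90 genes as rising, beside 11, 16 and 9. The medians of 10 lists changed sign or reached 0 in some alternative. The spread in MH 38 (biological coefficient of variation 0.604) was wider than in Ken 38 (0.233) and Ken 40 (0.296), and all groups share 1 estimate. Low genes in Ken 40 replicate 3, the library with the fewest counts, are the least precise.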
